A study of Mus musculus with 16 samples.

Results

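The 7 genes followed here belong to the machinery that lets medullary thymic epithelial cells (mTEC) transcribe tissue-restricted antigens, and were read in 16 RNA-seq libraries. They were Aire, Fezf2, Chd4, Prdm1, Hipk2, Sirt1 and Jmjd6, the 7 rows of the count table whose Ensembl identifiers carry those symbols, out of 89407 rows in all. The rule itself uses no measured value, although the genes were proposed with earlier results of these data known. Mature mTEC (high MHC class II) and immature mTEC (low MHC class II) were sorted from 8 mice as CD45-, EpCAM+, Ly51- and UEA+ cells, and each mouse gave 1 library of each population. The labels give the mice as C57BL/6, 4-6 weeks of age, with 10000 cells sorted for each library. The study's methods describe the Rbfox mutants as of mixed 129S2/Sv and C57BL/6J stock, 4 weeks old, with 10000 or more cells per animal. In the Rbfox1 line, 2 tKO mice (Rbfox1 lox/lox with Foxn1-Cre) were set against 2 control mice (Rbfox1 lox/lox without Cre), and in the Rbfox2 line 2 tKO mice (Rbfox2 lox/lox with Foxn1-Cre) against 2 control mice (Rbfox2 lox/lox without Cre). Every mouse therefore carried a floxed Rbfox gene, and Cre and loss of that gene always came together. Cre was driven from the Foxn1 locus, which is active in thymic epithelium as a whole, and each group held 1 female and 1 male.

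mTEC show developing T cells samples of the proteins of other organs, and T cells that bind these strongly are removed or turned into regulatory T cells. AIRE drives much of this promiscuous transcription by releasing paused RNA polymerase II at genes that are otherwise silent, and does so with a large set of partner proteins. FEZF2, a zinc finger transcription factor, drives a further set of antigens, working with the chromatin remodeller CHD4. PRDM1 (Blimp-1) is a transcriptional repressor that drives terminal differentiation, HIPK2 a kinase that phosphorylates AIRE, SIRT1 a deacetylase that acts on AIRE, and JMJD6 a hydroxylase with a role in RNA splicing that is needed for AIRE protein in the thymus.

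Aire (ENSMUSG00000000731) lies on the minus strand at chr10:78030022-78043610 of GRCm38, Fezf2 on the minus strand at chr14:12342094-12348189, and Sirt1 on the minus strand at chr10:63319005-63381704. Hipk2 (chr6:38694390-38876165), Prdm1 (chr10:44437177-44528501) and Jmjd6 (chr11:116837432-116843449) are on the minus strand as well, and Chd4 (chr6:125095981-125130591) is on the plus strand. All are protein-coding. Exons of Aire share 67 bases with Dnmt3l, and exons of Jmjd6 share 172 bases with Mettl23, both on the opposite strand, so a few reads of these genes could belong to the neighbour if counting ignored strand.

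The promoters of Aire, Sirt1 and Fezf2 are shown because these 3 genes rose together from immature to mature mTEC. Each window holds 300 bases, from 250 before to 50 after the RefSeq start site (GRCm38.p6), read along the gene. The Aire window is chr10:78043561-78043860, the Sirt1 window chr10:63338986-63339285 and the Fezf2 window chr14:12345816-12346115, all on the minus strand. Capitals mark matches on either strand to 5 motifs searched, the TATA, CCAAT and GC boxes, the E-box and a kappa B motif.
Aire: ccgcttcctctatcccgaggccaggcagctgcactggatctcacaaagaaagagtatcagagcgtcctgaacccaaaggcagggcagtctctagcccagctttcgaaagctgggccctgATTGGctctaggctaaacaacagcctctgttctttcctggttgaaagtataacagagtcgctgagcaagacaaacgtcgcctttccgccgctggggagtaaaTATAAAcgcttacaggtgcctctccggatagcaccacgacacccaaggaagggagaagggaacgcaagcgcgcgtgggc
Sirt1: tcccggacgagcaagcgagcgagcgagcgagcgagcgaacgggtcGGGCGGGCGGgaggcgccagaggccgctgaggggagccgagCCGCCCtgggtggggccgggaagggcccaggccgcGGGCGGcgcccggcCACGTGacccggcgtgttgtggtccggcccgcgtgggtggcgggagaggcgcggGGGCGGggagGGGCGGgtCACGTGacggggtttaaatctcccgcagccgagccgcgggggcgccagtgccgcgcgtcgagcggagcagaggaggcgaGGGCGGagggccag
Fezf2: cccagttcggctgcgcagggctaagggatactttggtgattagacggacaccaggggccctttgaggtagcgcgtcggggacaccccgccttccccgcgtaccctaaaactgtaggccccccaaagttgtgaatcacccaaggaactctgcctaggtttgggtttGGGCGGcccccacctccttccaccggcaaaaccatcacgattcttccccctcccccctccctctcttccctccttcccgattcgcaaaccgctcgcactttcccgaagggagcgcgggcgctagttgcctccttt
The 3 windows had little in common. The Aire window held a TATAAA 29 bases before the start, a motif present in 13.6% of all 32851 promoters of this length, and 1 CCAAT box on the reverse strand, which 37.4% of promoters hold. Its GC content was 55.3%, near the median of 52.7% for all promoters. The Sirt1 window was richer in GC than 98.6% of all promoters, at 79.0%, and held 7 GC boxes (spelled GGGCGG), of which the first and second overlap, and 2 E-boxes (spelled CACGTG). An E-box is in 7.15% and a GC box in 35.7% of promoters. The Fezf2 window held 1 GC box and had a GC content of 61.3%. None of the 7 genes' 9 windows held the kappa B motif, which 1.63% of all promoters hold. A match describes letters, not binding.

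Counts were scaled for library size with TMM factors and are given as CPM, a gene's count relative to the scaled total of its library. Library totals were 3737884 to 4636367 counts in mature and 1506134 to 2430287 in immature mTEC. The targeted genes followed the labels for Rbfox2, which was at 9.46 and 16 CPM in mature tKO libraries against 57.5 and 56.6 CPM in their controls, and at 37.7 and 23.5 against 106 and 94.3 CPM in immature libraries. Rbfox1 was at 33.8 and 29.5 CPM in mature tKO libraries against 52.0 and 48.1 CPM in their controls (adjusted p = 0.242), and at 151 and 153 against 163 and 159 CPM in immature libraries (adjusted p = 0.947). Counts are over the whole gene, and the part deleted by Cre was not read separately. The 7 general mTEC markers were present in every library. From immature to mature mTEC of control mice, the antigen presentation genes Cd74, H2-Aa and Ciita and the epithelial factor Foxn1 were higher, and Epcam, Krt5 and Krt14 lower.

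**Figure D1:**
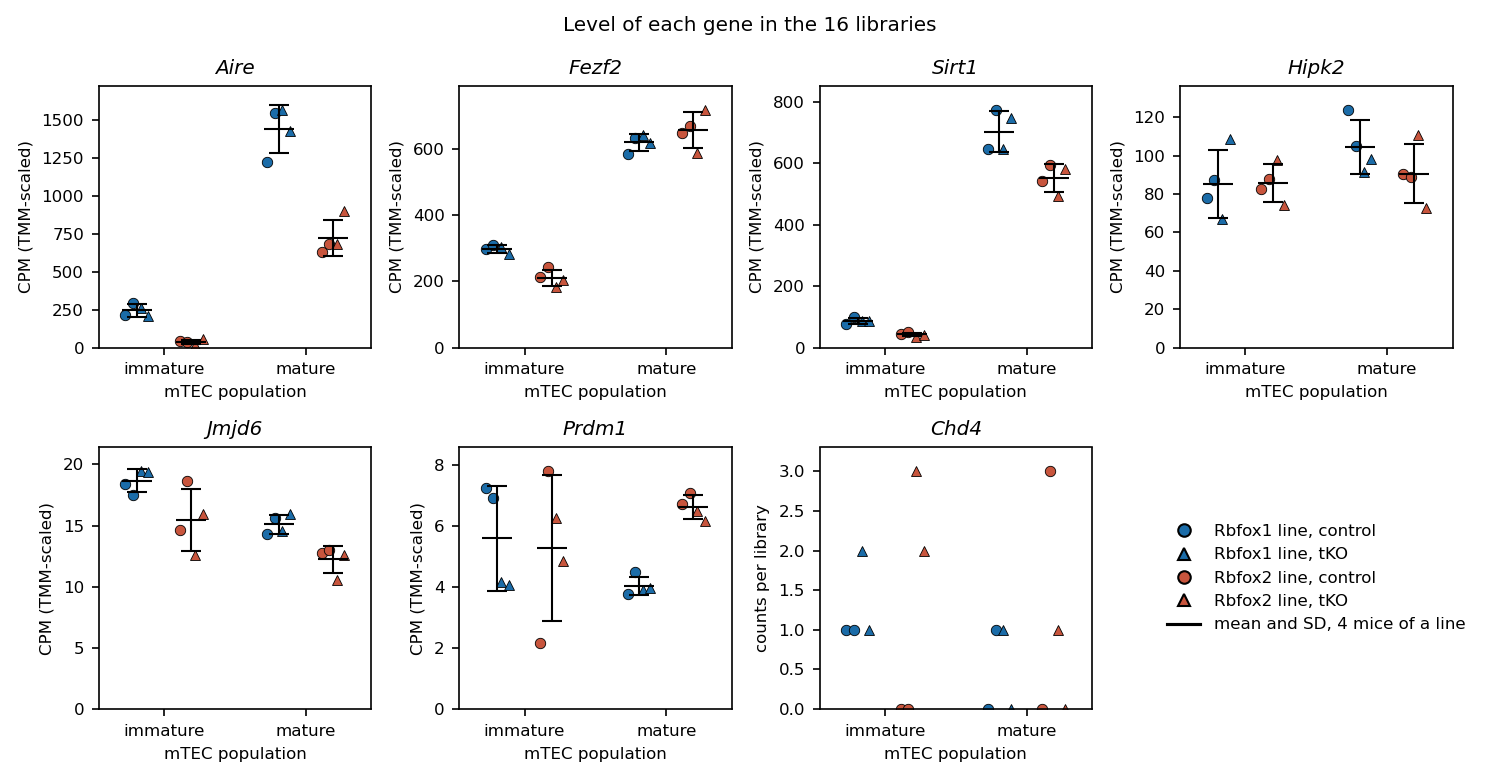
TMM-scaled CPM of 6 genes and raw counts of Chd4 (y axes, from 0) in the 16 libraries, by population (x axis), line (colour) and genotype (circles control, triangles tKO). Horizontal bars and whiskers are the mean and SD of the 4 mice of a line, and are left out for Chd4. Aire, Fezf2 and Sirt1 are higher in all mature than in all immature libraries, and Aire is higher in the Rbfox1 than in the Rbfox2 line in both populations.

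The levels of the 7 genes spanned a wide range when set per kilobase of exon. In mature mTEC the order was Aire (283 ± 106 CPM per kb, SD, n = 8), Fezf2 (210 ± 14.4), Sirt1 (118 ± 18.1), Hipk2 (11.0 ± 1.76), Jmjd6 (2.91 ± 0.379) and Prdm1 (0.956 ± 0.255), with Chd4 last. Ranges of neighbours in this order overlapped only for Aire and Fezf2, and Aire was the higher of these 2 in 4 of 8 mice. These were the 4 mice of the Rbfox1 line, at 320 to 410.5 CPM per kb of Aire against 192 to 211 of Fezf2. In the Rbfox2 line the ranges were 166 to 235 for Aire and 193 to 236 for Fezf2. In immature mTEC, Fezf2 came first (83.6 ± 16.5 CPM per kb), above Aire (37.0 ± 29.9) in 8 of 8 mice, and Sirt1 (12.1 ± 4.61) overlapped with both Aire and Hipk2 (9.66 ± 1.5). Jmjd6 (3.63 ± 0.526) and Prdm1 (0.975 ± 0.348) followed without overlap.

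Chd4 was close to absent from the table. Its row held 16 counts over the 16 libraries, with 0 to 3 in each, and 6 libraries were at 0. A count of 0 allows up to 3 counts, which is 0.647 CPM in the deepest of these libraries and 1.72 CPM in the shallowest. The other subunits of NuRD, the deacetylase and remodelling complex that holds CHD4, were well covered. Chd3, which encodes the alternative ATPase of the complex, had 15035 counts in all, and Rbbp7, a histone chaperone subunit, had 19050. Chd5, the third ATPase, had 218. Nup93, a nuclear pore gene listed among the AIRE partners, was low in the same way with 44 counts. The table also has rows for assembled loci, and the sources used here do not say how reads were divided among overlapping rows, so whether Chd4 reads went elsewhere was not tested. The near-absence of counts does not show absence of Chd4 RNA, and Chd4 passed the filter on low counts in no comparison. The other 6 genes were tested in every comparison.

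The populations of control mice were compared to place the 7 genes in mTEC maturation. Aire, Fezf2 and Sirt1 rose steeply, Hipk2 rose 1.23-fold, and Prdm1 and Jmjd6 did not pass the test. A gene passed at an adjusted p under 0.05 (edgeR's quasi-likelihood test, Benjamini-Hochberg over all genes tested). Of the 7 genes 6 were tested and 4 passed, all upward, where 66.2% of the 15357 genes tested passed and 35.7% passed upward, so the count itself is not far from what genes in general did. Past a 2-fold change were 3, against 34.4% of all genes.

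Aire was at 213, 297, 259 and 211 CPM in the immature libraries of the Rbfox1 line (2 control mice, then 2 tKO mice) and at 41.1, 36.0, 19.6 and 54.0 CPM in those of the Rbfox2 line. In mature libraries it was at 1225, 1551, 1570.2 and 1431 CPM in the Rbfox1 line and at 633, 683, 681 and 901 CPM in the Rbfox2 line. Every mature library lay above every immature one, and within each population the lines did not overlap. In control mice Aire was 8.50-fold higher in mature mTEC (log2 fold change 3.09, SE 0.243, adjusted p = 5.82e-08), and in tKO mice 10.1-fold (log2 fold change 3.33, SE 0.258, adjusted p = 6.39e-09). Within single mice the ratio ran from 5.22 to 34.8. The highest was that of Rbfox2 tKO replicate 1, whose immature library held 28 Aire counts, and the next was 19.0.

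Fezf2 was at 298, 309.7, 303 and 284 CPM in the immature libraries of the Rbfox1 line and at 214, 243, 183 and 204 CPM in those of the Rbfox2 line. Mature libraries held 585, 634, 644 and 619.7 CPM in the Rbfox1 line and 649, 672, 589 and 719 CPM in the Rbfox2 line. Mature and immature libraries did not overlap, and in the mature libraries the lines did. The rise was 2.42-fold in control mice (log2 fold change 1.28, SE 0.0984, adjusted p = 4.70e-08) and 2.71-fold in tKO mice (log2 fold change 1.44, SE 0.116, adjusted p = 1.04e-08). Beside Aire, Fezf2 thus started from a higher level in immature cells and changed less.

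Sirt1, the deacetylase, rose by a fold near that of Aire. Its immature libraries held 76.4, 99.3, 85.1 and 85.7 CPM in the Rbfox1 line and 43.3, 50.4, 35.6 and 41.5 CPM in the Rbfox2 line. Its mature libraries held 647, 775, 645 and 748 CPM in the Rbfox1 line and 541, 593, 495 and 581 CPM in the Rbfox2 line. Populations did not overlap, nor did the lines within a population. The log2 fold change was 3.28 in control mice (SE 0.128, adjusted p = 6.27e-11) and 3.36 in tKO mice (SE 0.134, adjusted p = 1.90e-12), or 9.73-fold and 10.3-fold. In single mice the ratio was 7.58 to 14, a narrower range than that of Aire.

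Hipk2 was at 67.1 to 109 CPM in immature and at 72.6 to 124 CPM in mature libraries, which overlapped widely. Its log2 fold change of 0.30 in control mice passed (SE 0.101, adjusted p = 0.0166), and the 0.12 in tKO mice did not (SE 0.149, adjusted p = 0.480). The pass rested on 1 mouse, since without Rbfox1 control replicate 2 it was 0.15 (adjusted p = 0.184). Jmjd6 was at 12.6 to 19.4 CPM in immature and 10.5 to 15.9 CPM in mature libraries. It was lower in the mature library in 8 of 8 mice, by a ratio of 0.698 to 0.891, and its log2 fold change did not pass in control mice (-0.29, SE 0.161, adjusted p = 0.129) or tKO mice (-0.30, SE 0.176, adjusted p = 0.141). Prdm1 was at 2.16 to 7.81 CPM in immature and 3.79 to 7.11 CPM in mature libraries, which was at most 29 counts, and its log2 fold changes were -0.17 (SE 0.340, adjusted p = 0.686) and 0.09 (SE 0.278, adjusted p = 0.805). For Prdm1 the 95% interval in control mice ran from 0.538-fold to 1.48-fold.

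In sorted populations, more cells that express a gene and more RNA per cell cannot be told apart. The sort took CD45- and EpCAM+ cells, a gate that should leave out blood cells, and markers of blood cells were nonetheless higher in mature libraries. The summed level of 6 dendritic cell and macrophage genes was 75.8 to 99.2 CPM in mature and 1.08 to 6.01 CPM in immature libraries, that of 6 thymocyte genes 45.1 to 57.8 against 3.42 to 23.2 CPM, and that of 3 B cell genes 12.4 to 20.8 against 0 to 3.46 CPM. The macrophage gene Adgre1 was at 0 in 7 of 8 immature libraries and none of these 15 genes was at 0 in a mature one. mTEC themselves transcribe genes of other tissues, and the part of these markers in the results for the 7 genes was not tested.

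Genes around these 7 were read from lists. The regulators of the Aire locus, transcription factors reported to act on Aire transcription, mostly rose. Of 8 tested, 6 rose in control mice and 2 fell, where 35.7% of all genes rose and 30.5% fell, and the median log2 fold change was 1.18, where the median of all tested genes was 0.02. The T-box factor Tbx21 (3.55, SE 0.168), the HMG-box factor Tcf7 (2.28, SE 0.256) and the interferon regulatory factors Irf8 (1.66, SE 0.0957) and Irf4 (1.52, SE 0.160) rose most in log2 fold change, while the insulators' factor Ctcf (-0.50, SE 0.0752) and the NF-kappaB subunit Rela (-0.30, SE 0.102) fell. Tbx21, Tcf7, Irf8 and Irf4 are also expressed by blood cells.

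Among the partners of AIRE more fell than rose. Of 26 tested, 15 fell, 3 rose and 8 did not pass, where 30.5% of all genes fell and 35.7% rose. Their median log2 fold change was -0.26. The DNA repair protein gene Xrcc5 fell most (-1.60, SE 0.132), before Deaf1, a transcription factor related to AIRE (-0.99, SE 0.155), and the topoisomerase gene Top2b (-0.81, SE 0.0857). The 3 that rose were the topoisomerase gene Top2a (0.54, SE 0.138), which is also a proliferation gene, Parp1 of DNA repair (0.27, SE 0.101) and the acetyltransferase gene Kat7 (0.21, SE 0.0830). Of the 14 NuRD subunits beside Chd4, 8 fell and 3 rose, beside the same 30.5% and 35.7% of all genes, with a median of -0.30. The methyl-CpG binding subunit gene Mbd2 (-1.41, SE 0.0977), Mta1 (-1.05, SE 0.0829), Gatad2a (-0.86, SE 0.0918) and Mta2 (-0.68, SE 0.0783) fell most, while Rbbp7 (0.62, SE 0.0751) and Hdac1 (0.30, SE 0.0904) rose. Chd5, also counted as rising, was at 0 to 2.40 CPM in immature and 2.16 to 9.32 CPM in mature libraries. It passed the filter only through its mature level, so its direction is no result and no fold is given.

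No gene tested from the list of paralogues rose as Sirt1 did. The list held paralogues of Fezf2, Hipk2, Sirt1 and Jmjd6 only. Of 10 tested, 2 rose and 5 fell in control mice, where 35.7% of all genes rose and 30.5% fell. Their median log2 fold change was -0.26. Sirt4, a mitochondrial sirtuin, rose by 0.91 (SE 0.251) and the kinase gene Hipk3 by 0.59 (SE 0.0731), and Sirt5 (-0.71, SE 0.226), Sirt3 (-0.47, SE 0.199), Jmjd8 (-0.38, SE 0.0980) and Hipk1 (-0.26, SE 0.0726) led those that fell. Of the AIRE read-outs, the casein gene Csn2 was well counted in both populations and rose by 4.55 (SE 0.220). Mup4 was at 0 in 7 of 8 immature libraries and at 5.26 to 11.4 CPM in mature ones, Muc6 at 0 in 7 of 8 and at 4.87 to 8.45 CPM, and Ins2, for insulin, at 0 in 5 of 8 and at 8.55 to 15.4 CPM. The salivary gene Spt1 was at 0 to 3.6 CPM in immature and 38.8 to 58.2 CPM in mature libraries. These 4 passed the filter only through their mature level, so that their direction is no result and no fold is given. Of the FEZF2 read-outs, Maoa (1.77, SE 0.162) and the keratin gene Krt10 (0.67, SE 0.221) rose, Krt10 by less than Fezf2. Ttr was at 0 to 3.06 CPM in immature and 16.5 to 28.2 CPM in mature libraries, with the same limit. The apolipoprotein gene Apob was at 0 to 13.3 CPM in immature and 59.5 to 156 CPM in mature libraries. It was at 0 in 1 immature library, so no fold is given for it. In tKO mice 3 of the 6 members tested passed, where 65.4% of all genes did. There 6 of 8 regulators, 4 of 26 partners, 3 of 13 NuRD subunits and 2 of 10 paralogues were higher, where 35.7% of all genes were, and 2, 14, 6 and 2 were lower, where 29.7% were.

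The genes with the pattern most like that of Aire over the 16 libraries, among 11369 others with a mean of at least 10 CPM, were Sspo, Irf4, Kndc1, Gm13028 and Pkdcc, with a Pearson r of log2 CPM of 0.992, 0.991, 0.990, 0.985 and 0.984. Within the 8 mature libraries the same pairs gave 0.965, 0.851, 0.970, 0.966 and 0.916. For Fezf2 they were Hdc, Micall2, 1700092C10Rik, Tbc1d4 and Stra6, with an r of 0.992, 0.992, 0.992, 0.991 and 0.991 over 16 libraries, and of 0.267, 0.515, -0.10, -0.03 and 0.277 within the 8 mature ones. Within the 8 immature libraries r was 0.961 to 0.983 for the 5 neighbours of Aire and 0.932 to 0.968 for those of Fezf2. The r of pairs with Fezf2 was thus high across populations and in immature libraries, and lower in mature ones. The reason for the lower r was not tested. Fezf2 in immature libraries, and Aire in both populations, did not overlap between lines, so r there includes the line difference. The 16 libraries are 2 from each mouse and share line and population, so these values rank genes and carry no test. Sirt1 had an r of 0.942 with Aire and 0.988 with Fezf2 over 16 libraries, of 0.867 and -0.06 in the 8 mature ones, and of 0.966 and 0.976 in the 8 immature ones. In the same order, Jmjd6 had -0.23 and -0.46, 0.835 and -0.03, and 0.760 and 0.856. Hipk2 had 0.313 and 0.305, 0.240 and -0.957, and -0.21 and -0.17. Aire and Fezf2 had 0.937, -0.19 and 0.941 with each other.

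The tKO and control mice were compared to ask whether loss of an RBFOX splicing factor changes these genes. No difference passed for any of the 6 tested genes in either line or population. For Rbfox1 tKO mice the edgeR test passed 0 of 6 in either population, where 0.0222% of all genes in mature and 0.0383% in immature mTEC passed. For Rbfox2 tKO mice it passed 0 of 6 in either, where 0.0555% and 0.0919% did. DESeq2 passed none either, although in immature Rbfox2 tKO mTEC it gave no adjusted p for Prdm1 and Jmjd6. At an unadjusted p under 0.05 there was 1 gene, Aire in mature mTEC of Rbfox2 tKO mice, by edgeR, where 5.34% of all genes were under it, and none by DESeq2.

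Aire was at 681 and 901 CPM in the mature libraries of Rbfox2 tKO mice and at 633 and 683 CPM in their controls, which overlap. The log2 fold change was 0.26 (SE 0.114, 95% interval 0.02 to 0.50, adjusted p = 0.896). In mature Rbfox1 tKO libraries it was 0.11 (SE 0.112, adjusted p close to 1), at 1570.2 and 1431 CPM against 1225 and 1551. With both lines in one fit, 4 tKO against 4 control mice, the log2 fold change of Aire in mature mTEC was 0.19 (SE 0.0803, 95% interval 0.02 to 0.35, unadjusted p = 0.0298, adjusted p = 0.999). By that interval the mean effect over both lines would be at most 1.28-fold, while the interval of the Rbfox2 line alone reached 1.42-fold. In immature mTEC the log2 fold change of Aire over both lines was -0.11 (SE 0.161, 95% interval -0.44 to 0.23).

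The same fit passed 0 of 6 genes in mature and 0 of 6 in immature mTEC, where 0.0388% and 0.0919% of all genes passed, and Aire in mature mTEC was the only one with an unadjusted p under 0.05 by edgeR, as 4.49% of all genes were, and DESeq2 also had 1. The intervals of this fit bound the mean effect over both lines, not the effect of either knockout alone. Those of a single line were wider. In immature Rbfox2 tKO mTEC they ran from 0.593-fold to 1.56-fold for Aire and from 0.491-fold to 2.70-fold for Prdm1. The intervals that follow are those of both lines. For Fezf2 in mature mTEC the interval ran from 0.925-fold to 1.11-fold, for Sirt1 from 0.871-fold to 1.07-fold, for Hipk2 from 0.787-fold to 1.06-fold, for Jmjd6 from 0.779-fold to 1.19-fold, and for Prdm1, with its few counts, from 0.676-fold to 1.28-fold. In immature mTEC they were wider, from 0.815-fold to 1.02-fold for Fezf2, from 0.776-fold to 1.09-fold for Sirt1 and from 0.446-fold to 1.38-fold for Prdm1.

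**Figure D2:**
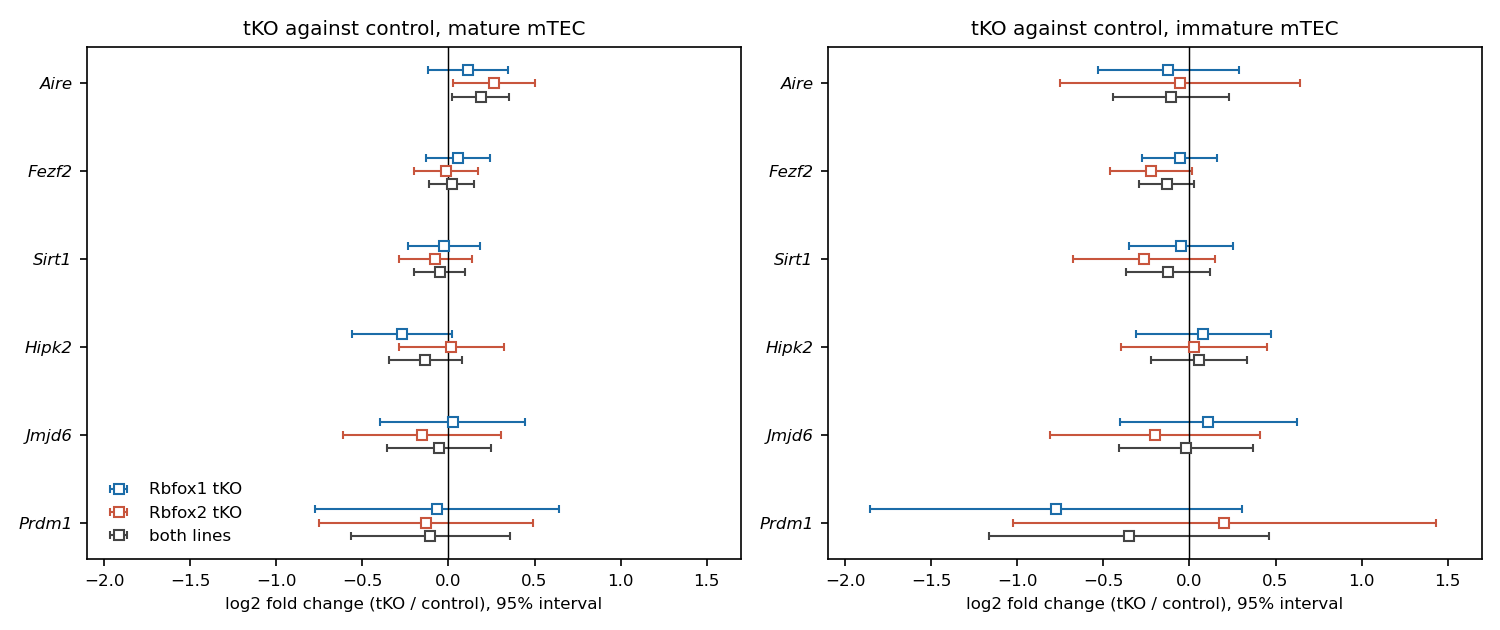
Log2 fold change of tKO over control (x axis) of 6 genes with 95% intervals, in mature (left) and immature mTEC (right), for the Rbfox1 line, the Rbfox2 line and both lines together. Open squares mark values that did not pass, which holds for all of them, and only the Aire intervals of the Rbfox2 line and of both lines in mature mTEC leave out 0.

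No difference between tKO effects passed either. The difference between the effects of Rbfox2 and Rbfox1 tKO passed for 0 of 6 genes in mature mTEC (0.00555% of all genes) and 0 of 6 in immature mTEC (0.00766%), and the difference between the tKO effects in mature and immature mTEC for 0 of 6 (0% of all genes). DESeq2 passed 0 of 6 in each, and no gene had an unadjusted p under 0.05 by either tool. For Aire the effect in mature less that in immature mTEC was 0.29 (SE 0.390, 95% interval -0.52 to 1.1). None of the NuRD subunits, AIRE partners, Aire regulators, paralogues or antigens passed in a tKO comparison. Of the marker genes, Foxn1, the transcription factor whose locus drives Cre, passed, with log2 fold changes of 0.77 and 0.94 in mature and immature Rbfox1 tKO mTEC and of 0.58 in mature Rbfox2 tKO mTEC, and at 0.62 did not in immature Rbfox2 tKO mTEC (adjusted p = 0.127).

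The lines themselves differed, control and tKO mice alike, and by a larger fold for Aire than for the other 5 genes tested. This comparison was added after the values were seen. In immature mTEC, Aire of the Rbfox1 line was 6.53-fold that of the Rbfox2 line (log2 fold change 2.71, SE 0.172, adjusted p = 4.88e-09). In mature mTEC it was 1.99-fold (log2 fold change 1.0, SE 0.0810, adjusted p = 7.04e-08). Sirt1 followed, at 2.04-fold in immature (log2 fold change 1.03, SE 0.118, adjusted p = 7.77e-06) and 1.27-fold in mature mTEC (log2 fold change 0.34, SE 0.0709, adjusted p = 0.00254). Fezf2 was 1.43-fold higher in immature mTEC of the Rbfox1 line (log2 fold change 0.51, SE 0.0770, adjusted p = 1.11e-04), and in mature mTEC its difference did not pass (log2 fold change -0.09, SE 0.0636, adjusted p = 0.400).

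In all, 3 of 6 genes passed in immature mTEC, where 23.5% of 13060 genes passed and 5.0% also changed over 2-fold, as Aire and Sirt1 did. Sirt1 stood at the edge of that limit, with a log2 fold change of 0.95 without Rbfox1 control replicate 3 and 0.97 without Rbfox2 tKO replicate 1. In mature mTEC 3 of 6 passed, where 13.5% of 18021 genes passed and 1.05% also changed over 2-fold, as none of the 6 did. Aire was just under that limit there, at 1.04 without either Rbfox1 control replicate 2 or Rbfox1 tKO replicate 3, and 1.09 without Rbfox2 tKO replicate 2. The mature call for Prdm1 was the weakest. Its libraries held 3.79, 4.49, 3.90 and 3.99 CPM in the Rbfox1 and 6.75, 7.11, 6.49 and 6.18 CPM in the Rbfox2 line, which do not overlap, with a log2 fold change of -0.71 (SE 0.222, adjusted p = 0.0363), and the adjusted p was 0.0528 to 0.0922 when any single mouse was left out and 0.133 with DESeq2. In the control mice alone, 2 against 2, only Aire passed in mature mTEC.

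The rise from immature to mature mTEC was accordingly steeper in the Rbfox2 line. For Aire it was 19.3-fold there (95% interval 15.5 to 24.0) and 5.92-fold in the Rbfox1 line (5.11 to 6.86), for Sirt1 13.1-fold (11.4 to 15) and 8.17-fold (7.17 to 9.32), and for Fezf2 3.16-fold (2.82 to 3.55) and 2.09-fold (1.91 to 2.29). Within a line 3 of 6 genes rose in the Rbfox2 line and 4 of 6 in the Rbfox1 line, with Hipk2 as the fourth (adjusted p = 0.0218, and 0.225 without Rbfox1 control replicate 2), where 68.2% and 69.4% of all genes passed. The difference between the lines was tested as an interaction. It was 1.7 on the log2 scale for Aire (SE 0.213, adjusted p = 9.55e-06), 0.66 for Sirt1 (SE 0.143, adjusted p = 0.00448, and 0.184 in control mice alone) and 0.58 for Fezf2 (SE 0.104, adjusted p = 7.56e-04), 3 of 6 genes where 5.23% of all genes passed.

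**Figure D3:**
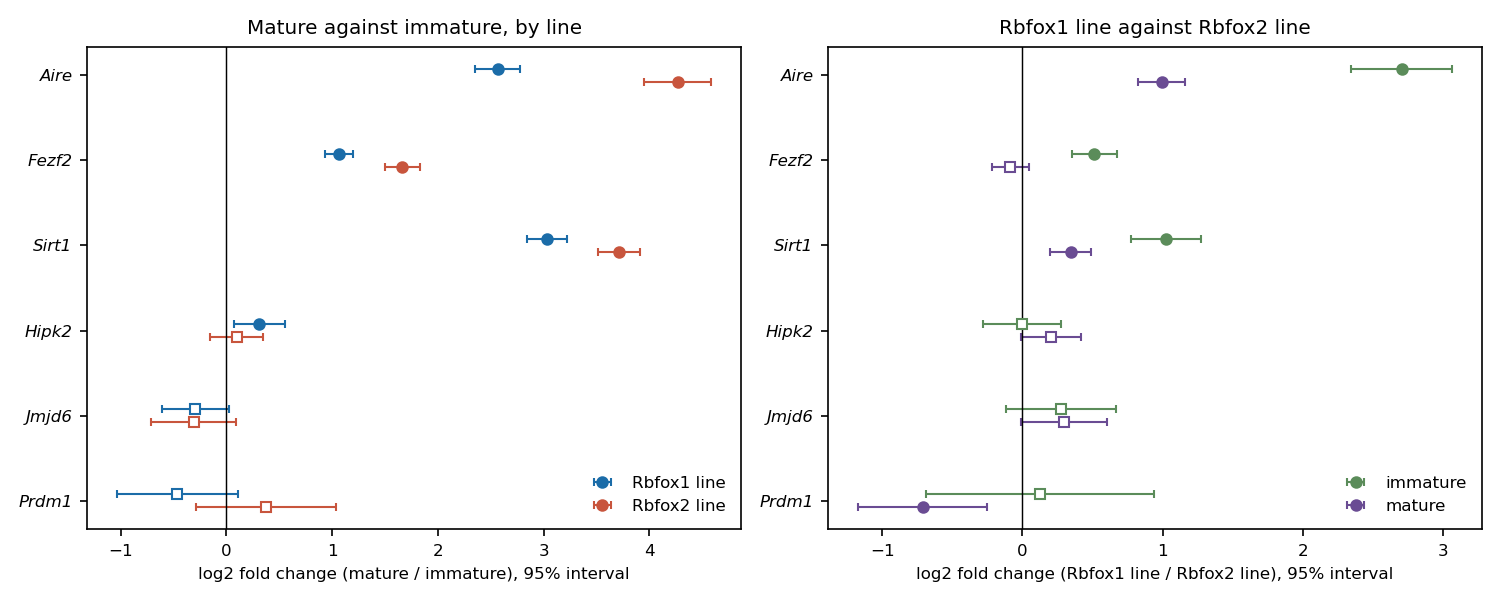
Log2 fold changes (x axes) of 6 genes with 95% intervals. Left, mature over immature mTEC in each line. Right, Rbfox1 line over Rbfox2 line in each population. Filled circles mark values that passed and open squares those that did not. The Aire, Sirt1 and Fezf2 rises are steeper in the Rbfox2 line, and the line difference of Aire is 2.71 in immature and 1.0 in mature mTEC.

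Other markers moved with Aire between the lines. In immature mTEC, the mature mTEC gene Cd80 was at 28.7 to 34.6 CPM in the Rbfox1 and 4.2 to 13.0 CPM in the Rbfox2 line (log2 fold change 1.74, SE 0.228), and Irf4 at 57.2 to 75.3 against 20.3 to 28.8 CPM (log2 fold change 1.39, SE 0.143). Of the 4 mature mTEC markers 3 were tested and all 3 were higher in the Rbfox1 line, where 12.1% of all genes were. Of 3 tested immature mTEC markers 2 were lower, where 11.3% of all genes were. The basal keratin gene Krt14 was at 1351 to 1699 CPM in the Rbfox1 and 2178 to 2431 CPM in the Rbfox2 line. The EpCAM+ gate should also leave out fibroblasts and endothelium. The summed level of 3 fibroblast genes was 59.4 to 128 against 283 to 504 CPM and that of 2 endothelial genes 15.8 to 45.2 against 53.4 to 161 CPM in immature libraries, with all 5 genes lower in the Rbfox1 line and none at 0. In mature libraries these sums were 231 to 266 against 249 to 292 CPM and 20.6 to 28.8 against 20.4 to 21.9 CPM, and none of the 5 genes passed between lines. Line cannot be told apart from strain makeup or any other difference between the 2 sets of mice or their processing, and the part of these markers in the line difference of Aire was not tested.

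**Figure D4:**
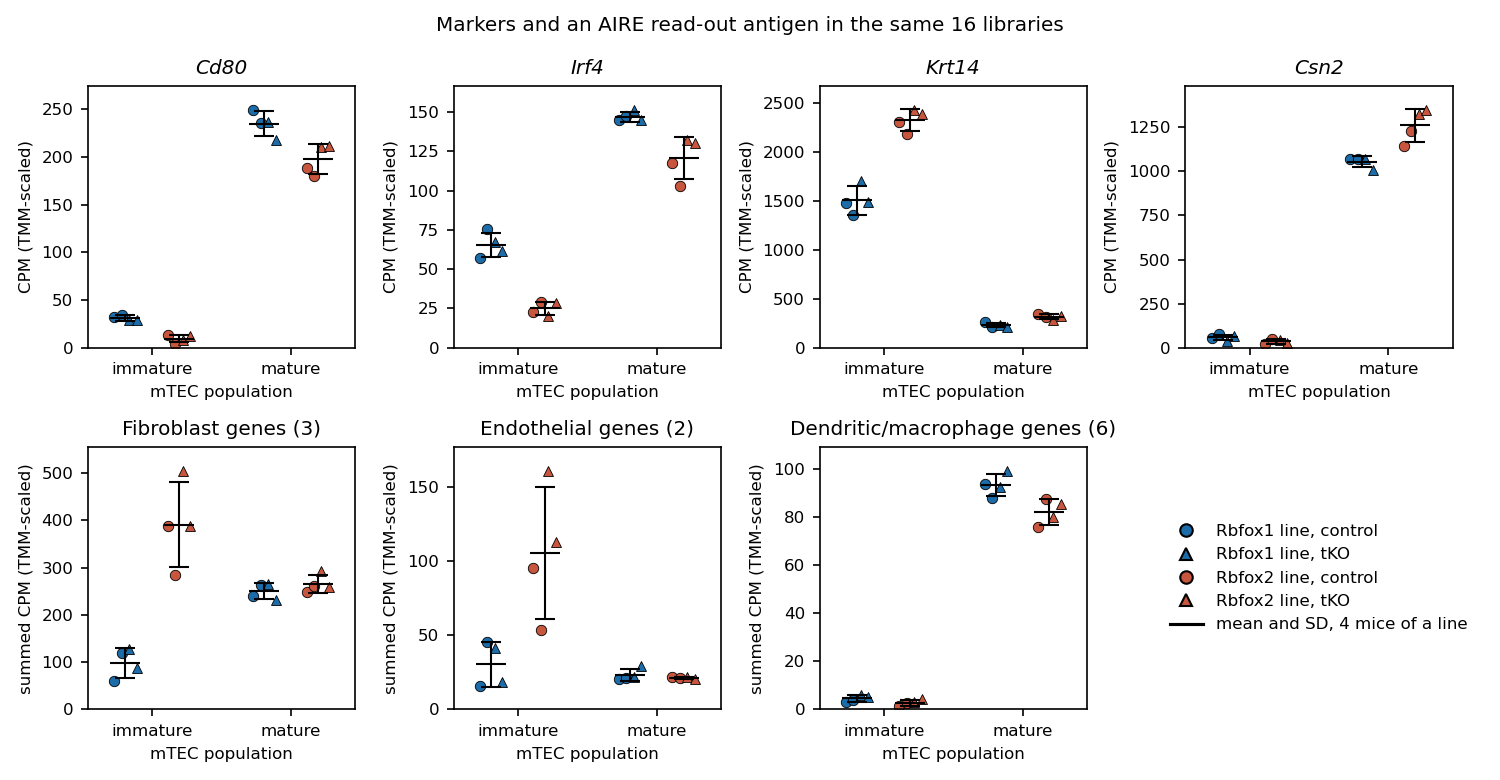
CPM of Cd80, Irf4, Krt14 and the AIRE read-out antigen Csn2, and summed CPM of fibroblast, endothelial and dendritic cell or macrophage genes (y axes, from 0) in the same libraries, with symbols and bars as in the plot of the 7 genes. Cd80 and Irf4 are lower and the fibroblast and endothelial sums higher in immature libraries of the Rbfox2 line, and Csn2 is not lower in its mature libraries.

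The antigens used as read-outs did not follow the level of Aire between lines in mature mTEC. Csn2 was at 1010.2 to 1074 CPM in the Rbfox1 line, where Aire was higher, and at 1145 to 1350.2 CPM in the Rbfox2 line, a log2 fold change of -0.26 (SE 0.0577, adjusted p = 0.00481). None of the other 4 tested AIRE read-outs passed, with log2 fold changes between -0.14 and 0.41, and the median over the 5 was 0.03. Of the 4 FEZF2 read-outs, Krt10 was lower in the Rbfox1 line (-0.63, SE 0.134, adjusted p = 0.00332) and the other 3 did not pass. Krt10 is also 1 of 3 post-Aire or keratinizing mTEC markers, whose summed mature level was 309 to 574 against 643 to 734 CPM. Sums of the 7 general mTEC markers (14744 to 16156 against 17790 to 18603 CPM) also did not overlap between lines. The 6 dendritic cell and macrophage genes went the other way, at 88.0 to 99.2 against 75.8 to 87.5 CPM. The part of these markers in the read-outs was not tested. In immature mTEC, Csn2 was the single AIRE read-out with enough counts and was higher in the Rbfox1 line (0.76, SE 0.232, adjusted p = 0.0238), at 39.3 to 74.5 against 18.4 to 49.2 CPM. Apob of the FEZF2 read-outs was at 0 to 13.3 CPM there, with at most 26 counts. It was at 0 in 1 immature library, so no line difference is given for it.

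Of all genes, 12.1% were higher and 11.3% lower in the Rbfox1 line in immature mTEC, and 6.76% and 6.79% in mature mTEC. The Aire regulators had 3 of 8 higher in the Rbfox1 line in immature mTEC, Irf4, Irf8 (0.47) and Nfkb2 (0.30), with a list median of 0.39, and 1 of 8 higher in mature mTEC, Irf4 (0.29). AIRE partners had 8 of 26 higher and 1 lower in immature mTEC and 6 of 26 higher in mature mTEC. Top2a led them, at 1.22 (SE 0.124) and 0.53 (SE 0.0805), and Ccnt2, a cyclin of transcription elongation, Ddx17, an RNA helicase gene, and Atf7ip passed in both populations. NuRD subunits had 1 higher and 2 lower of 13 in immature, and 2 higher and 3 lower of 14 in mature mTEC, among them Chd3, which was higher in both (0.29 and 0.31). Jmjd8 (-0.30) was the 1 of 10 paralogues that passed in immature mTEC.

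Levels of Aire across mice fell into separate groups by line in both populations, 4 mice in each, so no test of a correlation between Aire and the other 6 genes across mice is given.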

How the data were processed

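Mature and immature mTEC of 8 mice gave 16 stranded, paired-end, poly(A)-selected libraries. The authors deposited 1 table of raw counts per gene, made after duplicate removal and down-sampling, which its headers put at 10000000 (immature) and 14500000 (mature). Tools named by the submitters' processing notes are featureCounts 1.6.0, HISAT2 2.1.0 and Picard 2.10.9, with mm10. Use of strand in counting is not stated. Depth differs by population, and low genes such as Prdm1 are less precise in immature libraries. Intervals and limits cover counting error and the spread between mice only.

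All other values were computed here. Tests used edgeR 4.0.16 (R 4.3.3) with TMM factors, filterByExpr at a minimum count of 10, the quasi-likelihood test and Benjamini-Hochberg adjustment over all genes tested. A gene passed at an adjusted p under 0.05. Each tKO comparison was fitted on the 8 libraries of a population, maturation on the 8 libraries of a genotype or a line, and interactions over populations on all 16. The fits of maturation and of interactions over populations held no term for mouse. Their SEs and p values treat the 2 libraries of a mouse as independent, and the replicate block was the alternative that paired them. Symbols, coordinates and exon lengths came from GENCODE M21 (GRCm38), and promoters, found for all 7 genes, from RefSeq. Levels, motifs and correlations were computed in Python 3.11.15. Replicates are separate mice. The 2 libraries of a condition differed by a chi-square of 1.87 to 3.00 per degree of freedom, above counting noise.

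Both libraries of a mouse carry its number, and their deviations from the group means correlated by 0.10 to 0.19. A tKO and a control mouse with 1 number share sex, and their deviations correlated by 0.04 to 0.17, or 0.00268 to 0.0895 without chromosomes X and Y, so these numbers were not taken as pairs. The test was tried on simulated data, and over 18021 genes in mature mTEC it found 32.8% of the 1.5-fold and 68.7% of the 2-fold changes put into the Rbfox2 tKO comparison, and 47.8% and 83.6% of those put into both lines together. The simulation changed 67, 67 and 66 genes by 1.5-fold, 2-fold and 4-fold at once, all drawn from better counted genes. In the actual Rbfox2 tKO comparison 10 genes passed, so its adjusted threshold was stricter. These shares therefore overstate what the actual tKO tests could find.

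The 7 genes and all lists were chosen with earlier results of these data known. Genes of a list are named where they passed, up to 4 in each direction by size of the log2 fold change in control mice, or where they passed in a tKO comparison. Those named between lines, and Nup93, Chd3, Rbbp7 and Chd5 for their counts, were chosen after their values were seen. Alternatives were DESeq2 1.42.0, its size factors or library totals, no filter, a minimum of 10 counts in all libraries, a replicate block, all libraries in 1 fit, control mice alone for the line comparisons (added after seeing the data), and each mouse left out. 1 gene that this rule names is not reported here. Splicing was not analysed here.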

Additional observations from a re-analysis of the deposited data

Results flagged for a closer look

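The rise from immature to mature mTEC differed between the lines for 3 genes by an interaction test, chosen after the values were seen. It was larger in the Rbfox2 line by 1.7 for Aire, 0.66 for Sirt1 (adjusted p = 0.184 in control mice alone) and 0.58 for Fezf2 on the log2 scale. Jmjd6 in the mature library of Rbfox2 tKO replicate 1 was 10.5 CPM, apart from the other 3 mature libraries of that line at 12.6 to 13.0 CPM, with a gap of 0.837 of the whole range. It was the only such library in 24 groups of 4, of which chance sets apart about 1 in 20.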

How the results depend on the processing

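Of 990 log2 fold changes of the 6 tested genes under other settings, 922 (93.1%) kept their direction and side of the threshold. These leave out the difference between the Rbfox2 and Rbfox1 tKO effects. For the difference of tKO effects between populations they hold only Aire. The replicate block, which pairs libraries by mouse or number, left 4 and 3 genes passed for maturation in control and tKO mice and 0 in every tKO comparison, and changed no call for these genes. Within a population no such block could be fitted between lines, since their mice share no pairing. Over all genes the block raised the number passed in the line interaction from 861 to 1158, in tKO mature mTEC from 4 to 11 (Rbfox1), 10 to 28 (Rbfox2) and 7 to 17 (both lines), in tKO immature mTEC of both lines from 12 to 28, and in the difference of tKO effects in mature mTEC from 1 to 6. In control mice alone, 1 gene in place of 3 passed between lines in mature mTEC, as the fit then has 4 libraries, and Sirt1 had an adjusted p of 0.0793 there and of 0.184 in the interaction. Hipk2 in control mice had an adjusted p of 0.0548 with all 16 libraries in 1 fit. In the Rbfox1 line it missed the threshold with no filter (0.0574) or without Rbfox1 control replicate 2 (0.225). Between lines in mature mTEC it passed without Rbfox2 tKO replicate 1 (0.36, adjusted p = 0.00579). Prdm1 between lines in mature mTEC had adjusted p values of 0.0537 to 0.262 under library totals, no filter, all libraries, DESeq2 and control mice alone.

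Among these 990 log2 fold changes, signs turned only for values that had not passed. Hipk2 in mature Rbfox2 tKO mTEC was -0.00449 with library totals and -0.00676 with no filter, and in immature Rbfox2 tKO mTEC -5.98e-04 with no filter. Between lines in immature mTEC Hipk2 was 0.0835 with library totals, 0.00972 with no filter and 0.0127 with a minimum of 10 counts throughout, and Jmjd6 in the line interaction was 0.00950 with library totals. With 1 mouse left out in turn, the signs that turned had these ranges. Prdm1 ran from -0.55 to 0.0881 (maturation, controls), -8.1e-04 to 0.12 (maturation, tKO), -0.18 to 0.0508 (Rbfox1 tKO, mature), -0.48 to 1.35 (Rbfox2 tKO, immature) and -0.28 to 0.37 (lines, immature). Aire ran from -0.0439 to 0.29 (Rbfox1 tKO, mature), -0.34 to 0.14 (Rbfox1 tKO, immature), -0.96 to 0.50 (Rbfox2 tKO, immature), -0.25 to 0.0687 (both lines, immature) and -0.0734 to 0.64 (mature less immature tKO effect). Hipk2 ran from -0.31 to 0.40 (Rbfox1 tKO, immature), -0.31 to 0.30 (Rbfox2 tKO, mature), -0.18 to 0.22 (Rbfox2 tKO, immature), -0.12 to 0.19 (both lines, immature) and -0.15 to 0.12 (lines, immature). Sirt1 ran from -0.15 to 0.10 and -0.22 to 0.15 (Rbfox1 tKO, mature and immature) and -0.20 to 0.0351 (Rbfox2 tKO, mature). Fezf2 ran from -0.00110 to 0.11 (Rbfox1 tKO, mature), -0.17 to 0.12 (Rbfox2 tKO, mature) and -0.0363 to 0.0814 (both lines, mature). Jmjd6 ran from -0.0495 to 0.0931 (Rbfox1 tKO, mature), -0.11 to 0.00337 and -0.0681 to 0.0646 (both lines, mature and immature) and -0.0831 to 0.0449 (line interaction).

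Over all genes, no filter raised the numbers that passed in the 4 tKO comparisons from 4, 5, 10 and 12 to 25, 58, 51 and 96, in both lines together from 7 and 12 to 47 and 109, and in the differences of effects from 0, 1 and 1 to 23, 15 and 33. In control mice alone, genes passed between lines numbered 430 in place of 2441 in mature and 1567 in place of 3063 in immature mTEC, and 277 in place of 861 in the interaction. Under a minimum of 10 counts throughout, which tests fewer genes, maturation passed 6658 in place of 10166 genes in control mice, 6503 in place of 9936 in tKO mice and 7199 in place of 10865 in the Rbfox1 line. The permutation tests planned for correlations of Aire across mice, and their own alternative, were not run. With 1 mouse left out, the numbers passed ran from 4 to 14 and 5 to 12 (Rbfox1 tKO, mature and immature), 5 to 10 in both Rbfox2 tKO comparisons, 6 to 16 and 6 to 29 (both lines) and 1 to 12 and 0 to 6 (differences of effects), and between lines in mature mTEC fell to 1540 without Rbfox1 tKO replicate 3 and 1532 without Rbfox2 tKO replicate 2. Prdm1, with 4 to 29 counts in a library, is limited by depth.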
